A study of Mus musculus with 10 samples.

Results

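Solute carrier genes, recognised by a symbol that begins with Slc or Slco and a family digit, were the nearest protein-coding genes of 95 of the 5327 differentially accessible regions that the authors listed for mouse atrial cardiomyocytes. The 95 regions belonged to 63 genes. Each region was represented by a bin of 500 bp, and the bin was assigned to the nearest gene body of the RefSeq annotation of GRCm38 (the mm10 coordinates), with ties going to the gene whose end was nearer to the middle of the bin. Slc27a1, Slc25a20, Slc22a5, Slc38a2 and Slco4a1, which had 19 regions, were left out by the selection rule. The measurement was ATAC-seq, in which a transposase cuts and tags open chromatin. It was made on nuclei from both atria of mice of 8 to 12 weeks of age, pooled within each animal, stained for the cardiomyocyte nuclear marker PCM1 and sorted. The 2 groups were Prrx1(R1A)-/- mice, here called R1A-deleted (4 animals, 4 libraries), and mice labelled control (4 animals, 6 libraries, animals 1 and 3 having a repeat library each). The sources used here do not give strain, sex, the genotype behind the word control or the sequence bounds of the R1A allele, which the series title places in a noncoding region that regulates the homeobox gene Prrx1.

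Solute carriers are membrane proteins that move ions, nutrients, metabolites, vitamins and metals across the plasma membrane or the membranes of organelles without hydrolysing ATP themselves. Most work as exchangers or as cotransporters that draw on an existing gradient, such as that of sodium, and others are facilitative. In heart muscle they remove calcium after each beat, hold intracellular pH, import glucose, lactate, creatine and taurine, and exchange ADP for ATP across the inner mitochondrial membrane. Genes were grouped here by the substrate of their family, which is a coarse division: SLC6 carriers, for example, stand together although some move neurotransmitters and others neutral amino acids. A class name need not be the substrate of each gene in it.

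Of the 95 regions, 5 reached into the promoter of their own Slc gene. All of those 5 were higher in R1A-deleted atria, beside 66.7% of all listed regions. The share among listed promoter regions of all genes was not counted. Only 50 of the 63 genes had a promoter entry, so regions of the other genes could not be found this way. The 5 regions are shown because they overlap a RefSeq promoter entry of their gene. The 250 bases before the start are given 5′ to 3′ from RefSeq (GRCm38.p6). Capitals mark matches on either strand to the GC box GGGCGG or the E-box CACGTG, the 2 motifs that were found.
Slc25a34 promoter, chr4:141623835-141624084, minus strand: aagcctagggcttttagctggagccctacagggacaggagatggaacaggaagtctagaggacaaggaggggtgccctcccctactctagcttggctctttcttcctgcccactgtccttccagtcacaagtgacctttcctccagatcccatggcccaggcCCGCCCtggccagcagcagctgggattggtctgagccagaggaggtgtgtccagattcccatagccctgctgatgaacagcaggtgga
Slc49a4 promoter, chr16:35769371-35769620, minus strand: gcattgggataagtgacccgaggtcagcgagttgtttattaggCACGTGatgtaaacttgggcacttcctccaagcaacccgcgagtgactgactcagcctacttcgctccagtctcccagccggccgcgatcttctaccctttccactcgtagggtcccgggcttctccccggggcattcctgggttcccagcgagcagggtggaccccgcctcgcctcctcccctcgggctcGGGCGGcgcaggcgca
Slc35f6 promoter, chr5:30647689-30647938, plus strand: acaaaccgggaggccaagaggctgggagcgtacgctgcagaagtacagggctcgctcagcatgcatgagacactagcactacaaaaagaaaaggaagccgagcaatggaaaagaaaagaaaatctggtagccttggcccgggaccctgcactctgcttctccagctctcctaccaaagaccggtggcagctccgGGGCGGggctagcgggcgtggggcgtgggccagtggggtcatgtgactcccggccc
Slc39a1 promoter, chr3:90247942-90248191, plus strand: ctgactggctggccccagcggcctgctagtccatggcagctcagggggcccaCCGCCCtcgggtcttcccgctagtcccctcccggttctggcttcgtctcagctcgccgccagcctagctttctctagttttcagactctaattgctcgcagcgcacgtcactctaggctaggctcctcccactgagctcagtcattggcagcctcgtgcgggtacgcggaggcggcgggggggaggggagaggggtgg
Slc41a3 promoter, chr6:90618996-90619245, plus strand: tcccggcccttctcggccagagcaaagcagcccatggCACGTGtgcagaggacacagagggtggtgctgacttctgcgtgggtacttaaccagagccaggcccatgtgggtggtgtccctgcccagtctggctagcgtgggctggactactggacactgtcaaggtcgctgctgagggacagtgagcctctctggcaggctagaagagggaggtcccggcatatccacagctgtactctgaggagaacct
Slc25a34 encodes a member of the mitochondrial carrier family and Slc49a4 a lysosomal carrier, and the listed regions held all 250 of these bases at both genes. Slc35f6 had 62 of the bases inside its region, Slc39a1, a zinc importer of the plasma membrane, had 59, and Slc41a3, a magnesium carrier, had 5. The Slc41a3 stretch precedes a start inside the annotated gene, and its bin lay 13.8 kb from the nearer gene end. A GC box stood in 4 of the 5 stretches and an E-box in 2. Over the 32851 upstream stretches of the RefSeq table, 32.7% held a GC box and 6.02% an E-box. Over the 64 stretches of Slc genes with a listed region, 62.5% held a GC box and 9.38% an E-box. Genes with only higher regions had a GC box in 31 of 40 stretches and an E-box in 5. Genes with only lower regions had a GC box in 7 of 20 stretches and an E-box in 1. The difference between these genes was not tested, and the GC content of the 64 stretches is not given. The GC content of the 5 stretches was 58.4% to 66.4%, against a median of 52.4% over the table. Such matches describe the letters of these windows, and no factor binding was measured.

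The listed Slc regions went both ways. By the sign of the authors' deposited fold change, 65 were higher and 30 were lower in R1A-deleted atria, so that 68.4% were higher (exact 95% Clopper-Pearson interval 58.1 to 77.6), beside 66.7% higher and 33.3% lower over all listed regions. The higher Slc regions had a median log2 fold change of 0.79 in the authors' deposited table and the lower ones of -0.78, beside 0.81 and -0.80 over all listed regions. An authors' adjusted p under 0.01 was reached by 53 Slc regions, or 55.8%, beside 50.7% of all. Of the 63 genes, 38 had regions that were all higher, 20 had regions that were all lower and 5 had both. Listed regions were found at 16.4% of the 384 Slc genes of the annotation that the rule allowed and at 14.4% of all protein-coding genes. In direction and in size the Slc regions lay close to the whole table.

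The table held no unchanged region, so nothing here compares Slc regions with unlisted chromatin. Reads in listed bins ranged from 272223 to 521778 over the R1A-deleted animals and from 151976 to 736607 over the controls, in which the repeat libraries of an animal were summed. Counts were divided by a factor for each animal that takes its zero from the authors' fold changes, and are called scaled reads. Raw reads at Slc bins ran from 1 to 512 per R1A-deleted animal and from 3 to 417 per control. edgeR's quasi-likelihood test with Benjamini-Hochberg adjustment over all 5327 regions called 65 Slc regions higher and 30 lower on this scale, beside 66.7% and 33.3% of all regions, since every listed region was called. Its p-values describe regions already chosen on these libraries and are no independent evidence. All 4 R1A-deleted animals lay above all 4 controls at 57 Slc regions and below them at 29, together 90.5%, beside 60.4%, 29.6% and together 90.0% of all listed regions. Nuclei were pooled within an animal, so fewer nuclei with an open region and less opening per nucleus cannot be told apart.

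The authors listed only regions that differ between the groups, so marker genes cannot check the sorted cell type here. Sums over marker regions carry that selection. Of 8 atrial cardiomyocyte marker genes, 5 had listed regions, 2 higher and 16 lower, with summed scaled reads of 1559 to 1603 in R1A-deleted animals and 2065 to 2359 in controls. Of 31 markers of other cell types, 8 had listed regions, 6 higher and 5 lower, with sums of 605 to 651 in R1A-deleted animals and 555 to 645 in controls. Listed regions lay at 3 of 5 smooth muscle and pericyte markers, 2 of 5 endothelial, 2 of 3 adipocyte and 1 of 4 immune. Fibroblast, neural, epicardial and erythroid markers had none. Over all protein-coding genes the share with a listed region was 14.4%. Among 13 carriers typical of other cells, none had a listed region, beside 16.4% of all Slc genes. They included Slc4a1 of red cells, Slc11a1 of macrophages and Slc6a2 of sympathetic nerves. The list does not hold every such carrier. Slc12a3, Slc1a2, Slc6a19, Slc6a17 and Slc24a5, which are known from other tissues as described below, are not in it and had listed regions. The part of cell composition in the Slc results was not tested.

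**Figure D1:**
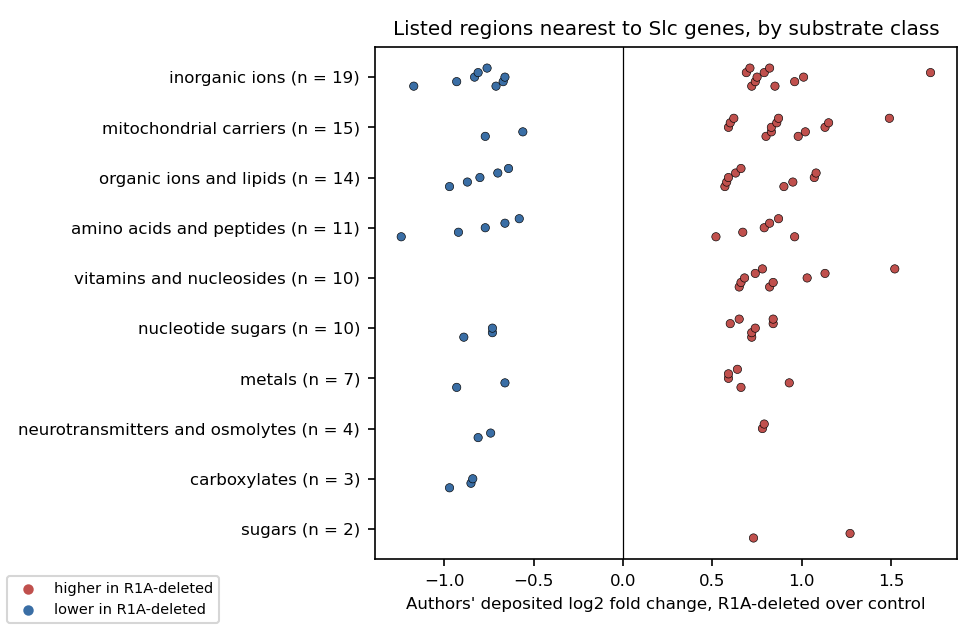
Each point is 1 of the 95 listed Slc regions, placed by the authors' deposited log2 fold change (R1A-deleted over control) and stacked by substrate class, with the number of regions in brackets. Vitamin and nucleoside carriers (10 regions) had points on the higher side alone, carboxylate carriers (3 regions) on the lower side alone, and the 19 inorganic ion carrier regions were split 11 to 8.

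The substrate classes had unequal balances of directions, although no class was large and no test between classes was made. The 10 regions of vitamin and nucleoside carriers, from 8 genes, were all higher, with a median deposited log2 fold change of 0.80. Mitochondrial carriers had 13 higher and 2 lower regions (median 0.83, 7 genes), or 86.7% higher (exact interval 59.5 to 98.3). Metal carriers had 5 higher and 2 lower, nucleotide sugar and sugar phosphate carriers 7 and 3, and carriers of organic ions and lipids 9 and 5. The most even classes were inorganic ion carriers with 11 higher and 8 lower, amino acid and peptide carriers with 6 and 5, and the SLC6 class with 2 and 2. Both regions of sugar carriers were higher, and all 3 regions of carboxylate carriers were lower. These counts are a description. Of the classes with at least 5 regions, all but vitamin and nucleoside carriers had intervals that held the 66.7% of the whole table. The vitamin and nucleoside interval began at 69.2%, but it counts 10 regions of 8 genes as separate. Classes were chosen with earlier results known, and no allowance was made for their number, so the intervals set no class apart. Several regions of a class share a gene, whereas the intervals treat regions as separate, so they are no test between classes.

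Among inorganic ion carriers, the highest value belonged to Slc12a3, the thiazide-sensitive sodium chloride cotransporter known from the kidney's distal tubule. It had 5 listed regions, the most of any Slc gene here, and all were inside the gene and higher. The third of them along the chromosome (chr8:94353751-94355500) had 211.2, 255.4, 195.8 and 183.3 scaled reads in R1A-deleted animals 1 to 4 and 59.1, 49.4, 51.3 and 61.7 in control animals 1 to 4. All 4 R1A-deleted animals were far above all 4 controls. The edgeR log2 fold change was 1.93 ± 0.16 (SE; adjusted p = 2.30e-09), and the authors' deposited log2 fold change was 1.72. The first region (chr8:94343251-94344000) averaged 119.7 ± 12.7 scaled reads in R1A-deleted animals and 50.5 ± 12.3 in controls (SD, n = 4 each). At the second region the groups overlapped, because control animal 2 had 49.4 scaled reads against 31.7 to 53 in R1A-deleted animals. The 5 regions lay 14.5 to 34.3 kb past the start of Slc12a3. The next protein-coding genes were Nup93, 15.4 kb from the first region, and Herpud1, 22.7 kb from the fifth.

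Slc8a1, which encodes the sodium calcium exchanger that extrudes calcium from cardiomyocytes in diastole, had 2 regions inside its long gene body that went opposite ways. The region at chr17:81429251-81430000, 308.6 kb past the start, had 71.8, 48.7, 30.3 and 90 scaled reads in R1A-deleted animals and 30.6, 18.8, 22.4 and 18.9 in controls. R1A-deleted animal 3 was just under control animal 1, so the groups overlapped there. edgeR gave 1.30 ± 0.28 log2 (SE; adjusted p = 2.09e-04). The region at chr17:81665251-81665750, 72.9 kb past the start, had 13.1, 11.9, 12.3 and 1.67 scaled reads in R1A-deleted animals and 50.1, 28.2, 18.2 and 25.2 in controls. Every R1A-deleted animal was below every control, but animal 4 rested on a single read. The edgeR log2 fold change was -1.56 ± 0.43 (SE; adjusted p = 0.0013), the most negative edgeR value of the Slc regions.

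Lower regions were found at a bicarbonate carrier and at an endosomal carrier. Slc4a4, the electrogenic sodium bicarbonate cotransporter, had 2 regions inside the gene, both lower. The stronger, at chr5:88930001-88931250, had 38.6, 48.7, 43.5 and 40 scaled reads in R1A-deleted animals and 98.7, 94.1, 112.8 and 122.1 in controls, with no overlap. It fell by 1.33 ± 0.19 on the log2 scale (SE; edgeR adjusted p = 2.32e-06). Slc9a9, an endosomal sodium proton exchanger, had 2 lower regions 495.75 kb apart, at -0.83 and -0.75 on edgeR's log2 scale.

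The remaining ion carriers moved calcium, magnesium or chloride. Slc24a4, a potassium-dependent sodium calcium exchanger, had 3 higher regions inside the gene with edgeR log2 fold changes of 0.81, 0.95 and 0.83. The first of these (chr12:102139501-102141000) averaged 144.2 ± 12.6 scaled reads in R1A-deleted animals and 81.1 ± 6.32 in controls (SD, n = 4 each). The 2 magnesium carriers went opposite ways. Slc41a1 was lower inside the gene, with 17.1 ± 5.15 in R1A-deleted animals and 40.6 ± 13.1 in controls (SD, n = 4 each). The Slc41a3 region shown above, at a start inside that gene, had 82.0 ± 10 in R1A-deleted animals and 45.5 ± 5.27 in controls (SD, n = 4 each). A lower region assigned to the anion carrier gene Slc26a7 lay 262.2 kb from it, and one assigned to Slc24a5, known from melanosomes, lay 148.1 kb from it.

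**Figure D2:**
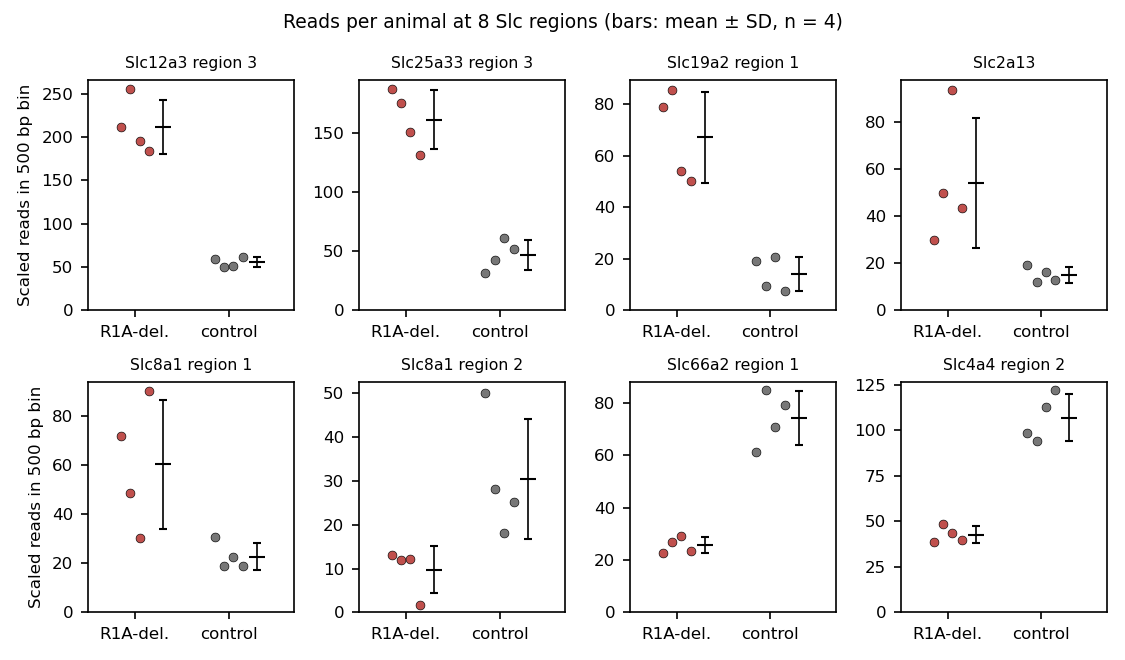
Scaled reads in the 500 bp bin (vertical axis, from 0) of 8 Slc regions in the 4 R1A-deleted animals and the 4 controls, 1 point per animal, with bars for the mean and SD. The points of the groups are apart in 7 panels, and in the panel of Slc8a1 region 1 the R1A-deleted animal at 30.3 meets the control at 30.6.

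Carriers of the inner mitochondrial membrane gained reads at most of their regions. Slc25a33, which brings pyrimidine nucleotides into mitochondria, had 3 higher regions upstream of its start. At the farthest of them (chr4:149791001-149792750, 17.5 kb before the start) the R1A-deleted animals had 187.5, 175.9, 151.3 and 131.6 scaled reads and the controls 31.7, 42.3, 61.5 and 51.6. The groups were apart by a wide gap, and edgeR gave 1.78 ± 0.20 log2 (SE; adjusted p = 8.20e-08). The neighbour 0.5 kb away had a log2 fold change of 1.15 ± 0.18, and the region 3.2 kb before the start had 0.67 ± 0.17 with overlapping groups (edgeR, SE). The next protein-coding gene, Tmem201, was 39.2 kb from the nearest of these bins.

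Slc25a26, the mitochondrial importer of the methyl donor S-adenosylmethionine, had 3 higher regions. The one inside the gene at chr6:94601001-94602250, 2.8 kb from Lrig1, had 316.3, 386.7, 484.3 and 353.2 scaled reads in R1A-deleted animals and 156.8, 230.6, 194.4 and 171.2 in controls. This region had the highest mean level of the Slc regions in R1A-deleted animals, and the groups did not overlap. The edgeR log2 fold change was 1.06 ± 0.14 (SE; adjusted p = 1.59e-06). A region 94.3 kb outside the gene had low levels, with 47.4 ± 17.8 scaled reads in R1A-deleted animals and 14.3 ± 5.30 in controls (SD, n = 4 each). Its edgeR log2 fold change was 1.60 ± 0.33 (SE; adjusted p = 1.36e-04). Slc25a30 had a higher region 17.2 kb before the start with 67.5, 60.6, 70.0 and 61.6 scaled reads in R1A-deleted animals and 25.3, 18.8, 24.7 and 27.7 in controls. Both groups were tight there, and edgeR gave 1.39 ± 0.22 log2 (SE; adjusted p = 7.98e-06).

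The promoter region of Slc25a34 had 310.2, 239.5, 247.8 and 238.3 scaled reads in R1A-deleted animals and 154.7, 141.2, 119.3 and 119.6 in controls. It was the only one of the 5 promoter regions that was called on both scales used here, with an edgeR log2 fold change of 0.96 ± 0.14 (SE; adjusted p = 4.65e-06). Slc25a22, a mitochondrial glutamate carrier, had 3 higher regions inside the gene within 4.3 kb of its start, with edgeR log2 fold changes of 0.66 to 1.06. Slc25a42, a coenzyme A carrier, had 2 higher regions inside the gene, at 0.67 and 1.06. The exception was Slc25a4, which encodes the ADP/ATP translocase that predominates in heart and skeletal muscle. Its 2 regions lay 3.9 and 4.9 kb downstream of the gene and 0.5 kb from each other, and both were lower. The stronger (chr8:46200751-46202250) had 78.0, 81.5, 65.3 and 78.3 scaled reads in R1A-deleted animals and 129.9, 127.0, 133.3 and 159.8 in controls, a log2 fold change of -0.86 ± 0.17 (SE; edgeR adjusted p = 7.11e-05). The next gene, Cfap97, was 6.2 kb from that bin.

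All 10 regions of vitamin, nucleoside, choline and heme carriers were higher on the authors' scale. With TMM factors edgeR called 3 of these gains, beside 988 of the 3551 gains over all listed regions. The largest change by edgeR of all Slc regions belonged to Slc19a2, the high-affinity thiamine transporter. Its upstream region (chr1:164235751-164236750, 12.8 kb before the start) had 78.9, 85.5, 53.9 and 50 scaled reads in R1A-deleted animals and 19, 9.41, 20.5 and 7.55 in controls. The groups did not overlap, and the log2 fold change was 2.07 ± 0.27 (SE; edgeR adjusted p = 1.03e-06). The bin lay 15.7 kb from F5, which encodes coagulation factor V, and 920.9 kb from Prrx1 on the chromosome that carries the R1A allele. A second Slc19a2 region, inside the gene, had 82.1 ± 17.8 and 38.4 ± 10.9 scaled reads in R1A-deleted animals and in controls (SD, n = 4 each). The choline carrier gene Slc44a1 had a higher region 101.9 kb upstream (1.41 ± 0.23 log2, SE, by edgeR), and its relative Slc44a5 had one inside the gene (1.26 ± 0.21). Single higher regions were found inside Slc23a2, an ascorbate transporter, inside Slc48a1, a heme transporter, inside the concentrative nucleoside transporter gene Slc28a3 and at the Slc49a4 promoter. Slc28a1, another nucleoside transporter gene, had 2 higher regions. The edgeR log2 fold changes of these 6 regions ran from 0.74 to 1.15. The Slc49a4 bin also overlapped Hspbap1.

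Sugar carriers had 2 regions and carboxylate carriers 3. Slc2a13, the proton myo-inositol cotransporter, had a region inside the gene (chr15:91282751-91283500) with 29.8, 49.7, 93.6 and 43.3 scaled reads in R1A-deleted animals and 19, 11.8, 16.3 and 12.6 in controls. R1A-deleted animal 3 stood highest, and without it the edgeR log2 fold change of Slc2a13 was 1.36 ± 0.34, beside 1.77 ± 0.32 with all animals (SE; edgeR adjusted p = 3.42e-05). Slc2a1, the basal glucose transporter, had 1 higher region with 50.6 ± 2.62 scaled reads in R1A-deleted animals and 26.3 ± 8.00 in controls (SD, n = 4 each). Slc2a4, the insulin-responsive glucose transporter of heart and muscle, had no listed region. Slc16a7, a monocarboxylate transporter, had 2 lower regions inside the gene at -1.12, where the groups overlapped, and -1.34 on edgeR's log2 scale. A lower region 11.9 kb before the start of its relative Slc16a12 had 48 ± 8.47 scaled reads in R1A-deleted animals and 98.1 ± 19.7 in controls (SD, n = 4 each).

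Slc66a2, classed here with amino acid and peptide carriers by its family, had the most negative deposited value of the Slc regions. The region (chr18:80284251-80287500, 3250 bp, the widest Slc region) was inside the gene, 9.3 kb from the potassium channel gene Kcng2. The R1A-deleted animals had 22.8, 26.8, 29.3 and 23.3 scaled reads and the controls 61.2, 84.7, 70.9 and 79.3. Values within each group were close, and the log2 fold change was -1.49 ± 0.22 (SE; edgeR adjusted p = 4.43e-06), against -1.24 in the authors' deposited table. A second lower Slc66a2 region followed after 0.5 kb, at -1.02 ± 0.18. Slc1a2, the glutamate transporter best known from astrocytes, had a higher region inside the gene with 141.1, 129.2, 87.0 and 83.3 scaled reads in R1A-deleted animals and 62.8, 32.9, 48.5 and 37.8 in controls. All R1A-deleted animals were above the controls (1.21 ± 0.21 log2, SE; edgeR adjusted p = 3.06e-05). Slc7a5, the large neutral amino acid transporter, had 122.4 ± 30.2 and 74.9 ± 14.8 scaled reads in R1A-deleted animals and in controls (SD, n = 4 each), with overlapping groups.

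Slc15a4, a peptide and histidine transporter of lysosomes, carried a higher and a lower region inside the gene, 13 kb apart. The higher one had 38.6, 42.7, 51.1 and 26.7 scaled reads in R1A-deleted animals and 16.4, 14.1, 17.2 and 32.7 in controls, with control animal 4 inside the range of the R1A-deleted animals. The lower one had 58.4 ± 14.3 scaled reads in R1A-deleted animals and 101.3 ± 17.1 in controls (SD, n = 4 each). Single higher regions at Slc38a9, a lysosomal arginine sensor, at Slc43a2 and at Slc38a10 had edgeR log2 fold changes of 1.07, 0.98 and 0.50. Slc38a10 had the smallest of the Slc regions, and its groups overlapped. Slc38a3, a glutamine transporter, and Slc7a15 had single lower regions outside the gene. The edgeR log2 fold change was -0.64 for Slc38a3 and -0.92 for Slc7a15.

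The SLC6 class held carriers of creatine and taurine, which cardiomyocytes concentrate from the blood. Slc6a8, the creatine transporter, had a lower region inside the gene (chrX:73677001-73677750) with 38.6, 34.8, 41.6 and 40 scaled reads in R1A-deleted animals and 83.9, 96.5, 58.3 and 70.5 in controls. The R1A-deleted animals were nearly equal and all lay below the controls, with a log2 fold change of -0.96 ± 0.21 (SE; edgeR adjusted p = 2.40e-04). Slc6a6, the taurine transporter, had a higher region 63.0 kb from the gene with 79.1 ± 11 scaled reads in R1A-deleted animals and 38.4 ± 9.27 in controls (SD, n = 4 each). Slc6a19, a neutral amino acid transporter of gut and kidney, had a higher region 0.2 kb from the gene body, and Slc6a17, a synaptic vesicle carrier, a lower one inside the gene.

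Organic ion carriers had several genes with more than 1 region. Slco2b1, an organic anion transporter, had 4 higher regions, of which 3 were inside the gene and 1 was 2.7 kb before the start. Their levels were high and their changes small: the second had 266.4, 281.3, 317.8 and 279.9 scaled reads in R1A-deleted animals and 166.8, 181.2, 192.1 and 202.6 in controls, and edgeR log2 fold changes of the 4 ran from 0.60 to 0.76. Slco3a1, which transports prostaglandins and other anions, had 2 higher regions and 1 lower. The first (chr7:74375251-74376250) had 132.3, 139.2, 127.7 and 98.3 scaled reads in R1A-deleted animals and 44.3, 35.3, 68.1 and 41.5 in controls, with a log2 fold change of 1.33 ± 0.20 (SE; edgeR adjusted p = 4.55e-06). The third, 97.0 kb beyond the second, had 100 ± 13.4 and 170.1 ± 24.9 scaled reads in R1A-deleted animals and in controls (SD, n = 4 each).

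Slc22a23, a member of the organic ion carrier family, also had both directions. Its 2 regions upstream of the start, 47.5 and 63.3 kb away, were higher (1.17 ± 0.30 and 1.32 ± 0.23 log2, SE, by edgeR), and the one inside the gene was lower (-1.06 ± 0.25). Single lower regions were found inside Slc10a6, a sulfated steroid carrier (-1.20), downstream of Slc22a2, an organic cation transporter (-0.78), and 50 kb from Slco5a1 (-0.94). Slc47a2, which exports organic cations, had a higher region (0.62).

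Zinc carriers made up most of the metal class. Slc30a1, the zinc exporter of the plasma membrane, had a higher region 0.2 kb upstream with 94.7 ± 13 scaled reads in R1A-deleted animals and 61.8 ± 10.7 in controls (SD, n = 4 each). Slc30a2, a vesicular zinc carrier, had the largest gain of the class, with 65.7, 54.7, 68.1 and 73.3 scaled reads in R1A-deleted animals and 35.4, 35.3, 27 and 21.4 in controls, or 1.13 ± 0.22 log2 (SE; edgeR adjusted p = 9.31e-05). The bin was 1.6 kb from Extl1 and 24.6 kb from Trim63, the muscle ubiquitin ligase MuRF1. Higher regions were also assigned to Slc39a14, an importer of zinc, iron and manganese (0.63), to Slc39a1 at its promoter (0.77) and to Slc30a5, 185.5 kb away (0.73). The zinc carrier genes Slc39a11 and Slc39a13 had lower regions inside the gene (-1.18 and -0.75; all values are edgeR log2 fold changes).

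Nucleotide sugar and sugar phosphate carriers serve mainly the Golgi and the endoplasmic reticulum. In the authors' deposited table, 2 of their 10 regions had an adjusted p under 0.01. The edgeR log2 fold changes of the higher ones ran from 0.68 to 1.13. Slc35f6 had 2 higher regions upstream, the farther of which had 144.4 ± 5.47 scaled reads in R1A-deleted animals and 82.8 ± 8.75 in controls (SD, n = 4 each). Slc35f2 had 2 higher regions, and 1 of them was 17.3 kb from Sln, the sarcolipin gene of atrial muscle. Slc35f5 and Slc37a1 had 1 higher region each. Slc35b4 had 1 lower and 1 higher region upstream, 27.75 kb apart. Slc35b2, which carries the sulfate donor of the Golgi, had a lower region inside the gene, 0.8 kb from Hsp90ab1, and Slc37a4, the glucose-6-phosphate translocase, had a lower region inside the gene.

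**Figure D3:**
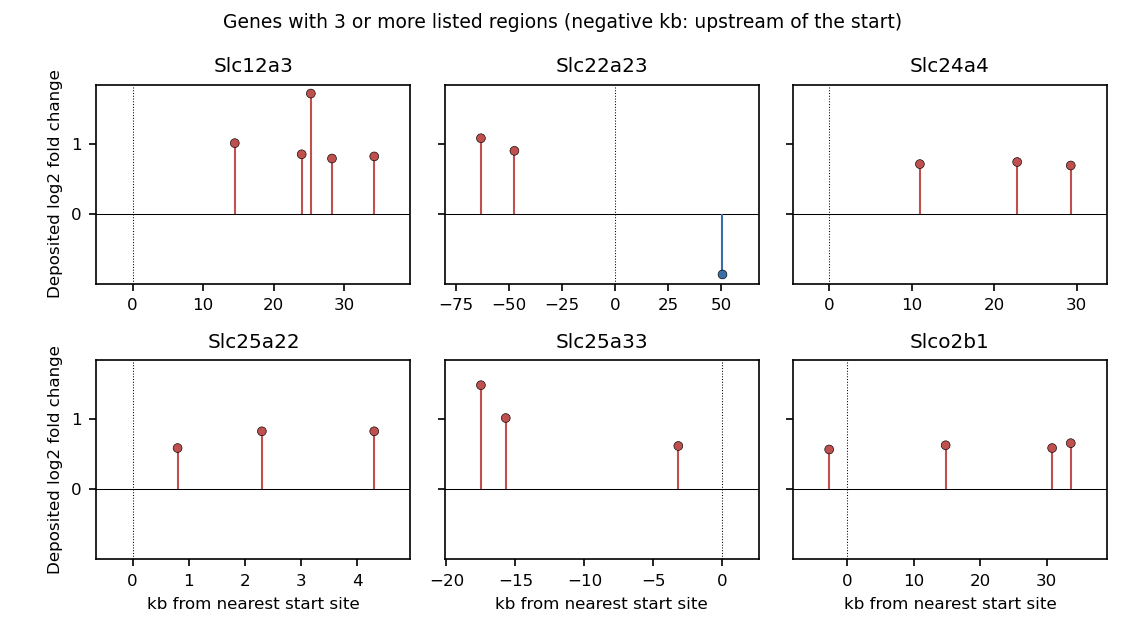
Authors' deposited log2 fold change (vertical axis) of each listed region against the distance of its bin from the nearest RefSeq start site in kb, for the 6 Slc genes that had at least 3 regions and a start site in the table; negative distances are upstream. The Slc25a33 regions are all upstream, the Slc12a3 and Slc24a4 regions are all downstream of the start, and Slc22a23 has its lower region inside the gene and its higher ones upstream.

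Most Slc regions had their bin inside the gene: 65 of 95, or 68.4%, beside 60.9% of all listed regions, and 88 were within 50 kb. The 30 outside had a median distance of 13.4 kb and reached 262.2 kb. Where the annotation gave a strand, 19 regions were upstream, of which 16 were higher, and 6 were downstream, of which 2 were higher. Over all listed regions 66.7% were higher, and that share was not split by position. Several of these regions share a gene. With TMM factors, edgeR called 6 of the 16 upstream gains, beside 988 of the 3551 gains over all listed regions. The bin of 18 regions had another protein-coding gene within 10 kb, and the nearest gene need not be the one a region acts on. Of the 63 genes, 21 had at least 2 regions, giving 32 pairs of neighbours, and 27 of these pairs (84.4%) had the same direction, beside 85.3% of the 2179 such pairs over all genes with listed regions. All 15 Slc pairs within 10 kb did, beside 98% of 986 such pairs over all genes. The 5 Slc pairs of opposite direction, in Slc8a1, Slc15a4, Slc22a23, Slc35b4 and Slco3a1, were 13 to 235.25 kb apart. Close regions share chromatin and are not separate observations.

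The animals of a group were scaled to each other by median ratios over the listed regions. Close medians within a group therefore follow largely from that scaling. The median scaled reads of the 65 higher regions were 88.5, 93.4, 91.7 and 90 in R1A-deleted animals 1 to 4 and 46.5, 42.3, 48.5 and 46.6 in control animals 1 to 4. Over the 30 lower regions they were 36.4, 47.7, 43 and 40 in R1A-deleted animals and 77.1, 90.6, 73.2 and 82.4 in controls. R1A-deleted animal 4 and control animal 2 had the fewest reads of their groups. R1A-deleted animal 4 was the lowest of its group at 26 of the 65 higher regions. Control animal 2 was the lowest of its group at 26 of them and the highest at 16 of the 30 lower regions.

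**Figure D4:**
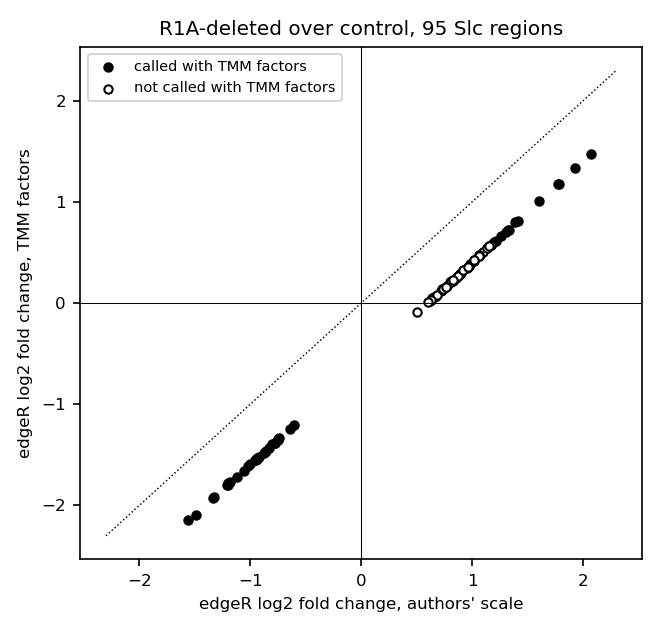
edgeR log2 fold change (R1A-deleted over control) of the 95 Slc regions on the authors' scale (horizontal) and with TMM factors computed on the listed regions (vertical); filled points were called with TMM factors and the dotted line marks equality. All points lie below the line, by a median of 0.60, and 18 higher and 30 lower regions are filled.

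The balance of higher and lower calls depended on how libraries were scaled. With TMM factors, which take most regions of the table to be unchanged, log2 fold changes of the Slc regions were 0.60 lower. With them edgeR called 18 higher and 30 lower, beside 18.5% and 33.3% of all listed regions. A downward shift enlarges losses, so lower calls were kept over the whole table and do not show that losses are firmer than gains. The 18 gains called on both scales lay at Slc12a3, Slc25a26, Slc25a33 and Slco3a1 (2 regions each) and at Slc1a2, Slc2a13, Slc8a1, Slc19a2, Slc22a23, Slc25a30, Slc25a34, Slc30a2, Slc44a1 and Slc44a5 (1 each). By class, mitochondrial carriers kept 6 of their 13 gains, inorganic ion carriers 3 of 11 and vitamin and nucleoside carriers 3 of 10. Organic ion carriers kept 3 of 9, amino acid carriers 1 of 6, metal carriers 1 of 5 and sugar carriers 1 of 2. The SLC6 class kept 0 of 2 and nucleotide sugar carriers 0 of 7. Over all listed regions 988 of 3551 gains were kept, and over the Slc regions 18 of 65. The gains at Slco2b1, Slc24a4, Slc25a22, Slc2a1, Slc6a6, Slc7a5 and Slc30a1, among others, were not called with TMM factors, and Slc38a10 changed sign (-0.09).

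A list of 40 carriers with established roles in heart muscle had listed regions at 12, or 30%. This stood beside 16.4% of all Slc genes and 14.4% of all protein-coding genes. The list was chosen with earlier results of these data known. Its share was not tested, and no allowance was made for gene length. Of the regions at these 12 genes 8 were higher and 7 lower, or 53.3% higher (exact interval 26.6 to 78.7), beside 66.7% of all listed regions. The higher ones included those of Slc2a1, Slc6a6, Slc7a5, Slc8a1, Slc30a1, Slc39a14 and Slc41a3, and the lower ones belonged to Slc4a4 and Slc25a4 (2 each), Slc6a8, Slc8a1 and Slc41a1. The median deposited log2 fold change of these 15 regions was 0.59, and their values reached 0.96 and -1.17, inside the range of 1.72 to -1.24 of all Slc regions. With TMM factors edgeR called 1 of the 8 gains (Slc8a1), beside 988 of the 3551 gains over all listed regions. All 7 losses were called, as were all 1776 losses of the table, since these factors move values downward.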

How the data were processed

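Per the submitters' processing notes, the build was mm10 and the tools included BWA, bedtools and DESeq2, whose versions and roles are not listed. Per the file headers, the authors' deposited table gives raw read counts of the bin that stands for each merged region; 17 cells hold 0.1 and none holds 0, so the deposited columns were handled as estimated counts and rounded. Fold changes in the deposited table are log2 of control over Prrx1(R1A), so their sign was turned. The deposited p-values are adjusted and reach 0.04999. The deposited group signal is a geometric mean of the counts.

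Counts of repeat libraries were summed per animal. The scale was set by regressing the authors' log2 fold change on the log2 ratio of geometric means over 1432 regions with both means of at least 50 (slope 0.874, difference between groups 0.142 log2), with median ratios within groups. The slope is below 1, and deposited fold changes are smaller than the edgeR ones for most regions. edgeR 4.0.16 (glmQLFit, glmQLFTest, R 4.3.3) was fitted to all 5327 regions without a filter, and was tested on simulated data. Alternatives were TMM factors, DESeq2 1.42.0 size factors, DESeq2 itself, filterByExpr, separate libraries, a replicate block, each animal left out, a stricter authors' threshold and a 50 kb window. Of the 63 genes, 50 had a RefSeq promoter entry. MEF2, glucocorticoid receptor and CRE motifs were also searched in the promoters and were not found in the 5 shown. Named genes were those with at least 3 regions, the 10 highest and 10 lowest deposited fold changes, the smallest adjusted p of each class, members of the heart list, genes with both directions and the 10 smallest adjusted p near gene ends; this named 65 regions of 40 genes, and the others were added to account for the remaining genes; 1 gene is counted but not reported here by name. Members, classes and lists were chosen with earlier results of these data known. Whether reads were shifted or deduplicated, and which design the authors fitted, is not stated in the labels or headers. The labels number animals as separate individuals.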

Additional observations from a re-analysis of the deposited data

Results flagged for a closer look

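In 9 of 130 groups of 4 animals at named Slc regions, 1 animal stood far from the other 3, with a gap that took up most of the group's range; chance alone marks about 1 group in 20. Among R1A-deleted animals, the highest value was that of animal 2 at the third Slc24a4 region (72.6 scaled reads, the others 58.3 to 58.7) and of animal 1 at Slc25a34 (310.2). The lowest was that of animal 4 at the fourth Slc12a3 region (163.3, the others 234.6 to 239.5) and at the second Slc8a1 region (1.67), and of animal 1 at the first Slc4a4 region (34.2). Among controls, animal 4 was highest at the first Slc15a4 region (32.7) and animal 2 at Slc6a19 (63.5). Animal 1 was lowest at the fourth Slc12a3 region (104.5, the others 127.0 to 127.3) and animal 2 at the second Slc22a23 region (7.06, which is 3 reads). Each of these regions kept its edgeR call on the authors' scale without the animal concerned.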

How the results depend on the processing

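On the authors' scale the 65 higher and 30 lower Slc calls were the same with filterByExpr, with DESeq2, with the 10 libraries entered separately, and without any 1 animal. With TMM factors the higher calls numbered 18 and the regions whose groups did not overlap 44, instead of 86; with DESeq2 size factors these were 18 and 45. Both assume that most listed regions are unchanged. The 30 lower calls were made under both, as were all 1776 lower calls of the table, since both shift values downward. Among regions with a deposited adjusted p under 0.01, 37 were called higher, 16 lower and 52 did not overlap, since fewer regions were counted. Leaving out 1 animal gave 86 to 90 regions without overlap. The share of higher regions was 67.4% with TMM factors, 69.8% under the stricter threshold and 68.2% within 50 kb; it was 65.1% with 1 region per gene and 66.7% without Slc12a3, alternatives chosen after seeing the data. With the replicate block the calls were 65 higher and 30 lower. Deviations of same-numbered animals correlated at 0.262, 0.04, -0.037 and 0.0, beside -0.152 to 0.078 for differently numbered animals. The highest value was that of the animals numbered 1, and what those animals share was not tested. The numbers were not taken as pairs. Of the 65 named regions, 29 lost their call with TMM factors and none changed sign. Bins with few reads, such as the lower Slc8a1 bin, limit precision.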

Other observations

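Other transport genes gave counts to set beside the Slc regions. ABC transporters, which use ATP to move their substrates, had 10 listed regions at as many genes, 8 higher and 2 lower in R1A-deleted atria, or 80% higher (exact interval 44.4 to 97.5), beside 66.7% of all listed regions. With TMM factors edgeR called 2 of the 8 gains, beside 988 of the 3551 gains over all listed regions. Both losses were called, as were all 1776 losses of the table. In the authors' deposited table the highest log2 fold change was inside Abcb11 (1.34), the bile salt export pump, and the lower regions were inside Abcc8 (-0.74), the sulfonylurea receptor of a potassium channel complex, and Abcg1 (-0.72), a cholesterol transporter. Among 14 ion pump genes, Atp1b1, a subunit of the sodium pump, had a lower region (-0.68), Atp2b1, a calcium pump of the plasma membrane, a lower one 328.9 kb away (-1.12), its relative Atp2b2 had 2 higher ones and the copper pump gene Atp7b 1 higher. Of 21 carriers known by other symbols, Sfxn1, Sfxn2, Spns2 and Spns3 had 1 higher region each, the largest 1.0 kb from Spns2 (1.48), an exporter of sphingosine-1-phosphate. No test was made on these lists.

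The 5 Slc genes outside the rule had 7 higher and 12 lower regions. With them, 72 of 114 regions nearest to a gene with an Slc symbol were higher, or 63.2% (exact 95% interval 53.6 to 72.0).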
